A study of Mus musculus with 16 samples.

Results

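The synapse genes described here are 40 genes whose proteins build chemical synapses, measured in the brains of newborn mice fathered with differently stored sperm. The members were listed by name and found by matching the accession of each array probe to a RefSeq gene symbol. All 40 were matched and tested, among 26477 genes and features that passed the filter on dim probes and 45616 on the array. They comprise 13 presynaptic genes, 5 genes of transmitter synthesis and vesicle loading, 17 postsynaptic genes and 5 adhesion genes, and 4 of them (Syn1, Syp, Gria3 and Nlgn3) lie on the X chromosome.

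The animals were C57BL/6 neonates at stage P1, with 1 brain RNA sample and 1 one-colour array per animal and 4 animals per group. The heated group descended from freeze-dried sperm kept at 95 °C for 1 h, the irradiated group from freeze-dried sperm exposed to X-rays at 5 Gy, the freeze-dried group from freeze-dried sperm with neither treatment, and the fresh group from fresh sperm. The labels name no transgene or mutant allele, and the treatments were applied to the fathers' sperm, not to the animals measured. The labels number each neonate without saying which shared a litter, so the p-values measure the spread between these animals, and littermates would make them too small. By Y-linked signal 1 heated, 3 irradiated, 4 freeze-dried and 2 fresh animals were male, so sex differs between the groups compared. The freeze-dried group is the reference of both treatments as well as the group set against fresh, so the comparisons below share arrays.

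A chemical synapse passes a signal by fusing transmitter-filled vesicles with the presynaptic membrane and detecting the transmitter with receptors on the other side. Fusion is driven by SNARE proteins, timed by calcium sensors and placed at release sites by active-zone scaffolds, while adhesion pairs such as neurexins and neuroligins span the cleft. In the newborn mouse brain synapses are still being built, and many of these genes are expressed in young neurons before synapses mature.

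The promoters of 4 of the 5 members that rose are shown first, because the results turn on these genes, and for Gria3, the other one, no window was matched. RefSeq windows (build GRCm38.p6, 250 bases before to 50 after the annotated start) matched 29 of the 40 members in 40 windows. Syt1 and Nlgn1 have an alternative start each, and the window with the motif is printed. Capitals mark the GC box GGGCGG on either strand in the first 3 sequences, and the left part of the RE1 element, TTCAGCACC, in the fourth. RE1 is the site of REST, a repressor of neuronal genes in other cells.
Camk2b, chr11:6065699-6065998, minus strand: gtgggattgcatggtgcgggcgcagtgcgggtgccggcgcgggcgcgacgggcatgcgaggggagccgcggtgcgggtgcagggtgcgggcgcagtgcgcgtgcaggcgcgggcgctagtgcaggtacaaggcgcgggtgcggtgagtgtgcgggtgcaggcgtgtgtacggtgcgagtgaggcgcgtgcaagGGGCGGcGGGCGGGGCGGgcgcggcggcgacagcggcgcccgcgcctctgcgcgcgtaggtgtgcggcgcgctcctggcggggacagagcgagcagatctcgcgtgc
Syt1, chr10:109010926-109011225, minus strand: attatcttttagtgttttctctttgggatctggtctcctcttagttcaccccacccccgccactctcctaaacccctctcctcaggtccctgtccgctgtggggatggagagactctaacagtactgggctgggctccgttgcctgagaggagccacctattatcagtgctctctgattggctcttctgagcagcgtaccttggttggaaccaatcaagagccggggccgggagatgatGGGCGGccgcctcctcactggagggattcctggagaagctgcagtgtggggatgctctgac
Ppfia2, chr10:106470060-106470359, plus strand: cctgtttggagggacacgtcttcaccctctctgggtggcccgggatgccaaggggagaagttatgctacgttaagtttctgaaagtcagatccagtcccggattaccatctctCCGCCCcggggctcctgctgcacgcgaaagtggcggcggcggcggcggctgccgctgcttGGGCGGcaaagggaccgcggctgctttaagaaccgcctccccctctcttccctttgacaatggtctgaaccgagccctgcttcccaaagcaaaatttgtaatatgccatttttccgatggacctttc
Nlgn1, chr3:26153937-26154236, minus strand: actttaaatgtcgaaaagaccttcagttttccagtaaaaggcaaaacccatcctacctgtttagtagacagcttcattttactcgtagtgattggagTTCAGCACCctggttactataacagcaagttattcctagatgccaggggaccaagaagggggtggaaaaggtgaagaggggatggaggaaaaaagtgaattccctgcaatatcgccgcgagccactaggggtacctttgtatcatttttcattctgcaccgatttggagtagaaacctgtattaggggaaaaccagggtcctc
The GC box was present 3 times in the Camk2b window, with 2 copies overlapping, once in that of Syt1 and 2 times in that of Ppfia2. It stood in 45% of the member windows and in 35.7% of all 32851 windows. TTCAGCACC was found in 2 member windows (Nlgn1 and Syn1) and in 0.371% of all windows, and the cyclic AMP element TGACGTCA in 1 (Syn1) and in 1.79%. These matches describe letters in a window and are not measured binding sites.

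Levels are given as log2 processed signal relative to the array's 75th percentile, and levels of different genes are not set against each other. All 40 members were well above background on all 16 arrays. Their standard deviation within groups ranged from 0.06 to 0.25 on the log2 scale with a median of 0.11, against a median of 0.15 over all genes. The 75th percentile of the signal was 720 to 958 per array and 59.9% to 66.1% of spots were well above background. The arrays lie on 2 slides: slide 1 holds all freeze-dried animals with 2 irradiated and 2 fresh ones, and slide 2 all heated animals with the other irradiated and fresh ones. All 12 neuron markers were measured, and the mean level of that list relative to its overall mean lay between -0.23 and 0.06 in heated, 0 and 0.02 in irradiated, -0.08 and 0.04 in freeze-dried and -0.06 and 0.1 in fresh brains. The -0.23 was that of heated 4, where the marker Gap43 read 3.76, against 6.69, 6.72 and 6.59 in heated 1 to 3. Hox and other hindbrain markers, 11 of 15 measured, were low in 4 brains, with list means of -3.79 in heated 2, -4.28 in heated 4, -1.87 in freeze-dried 2 and -4.06 in fresh 2, against -0.13 to 1.61 in the other arrays.

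**Figure D1:**
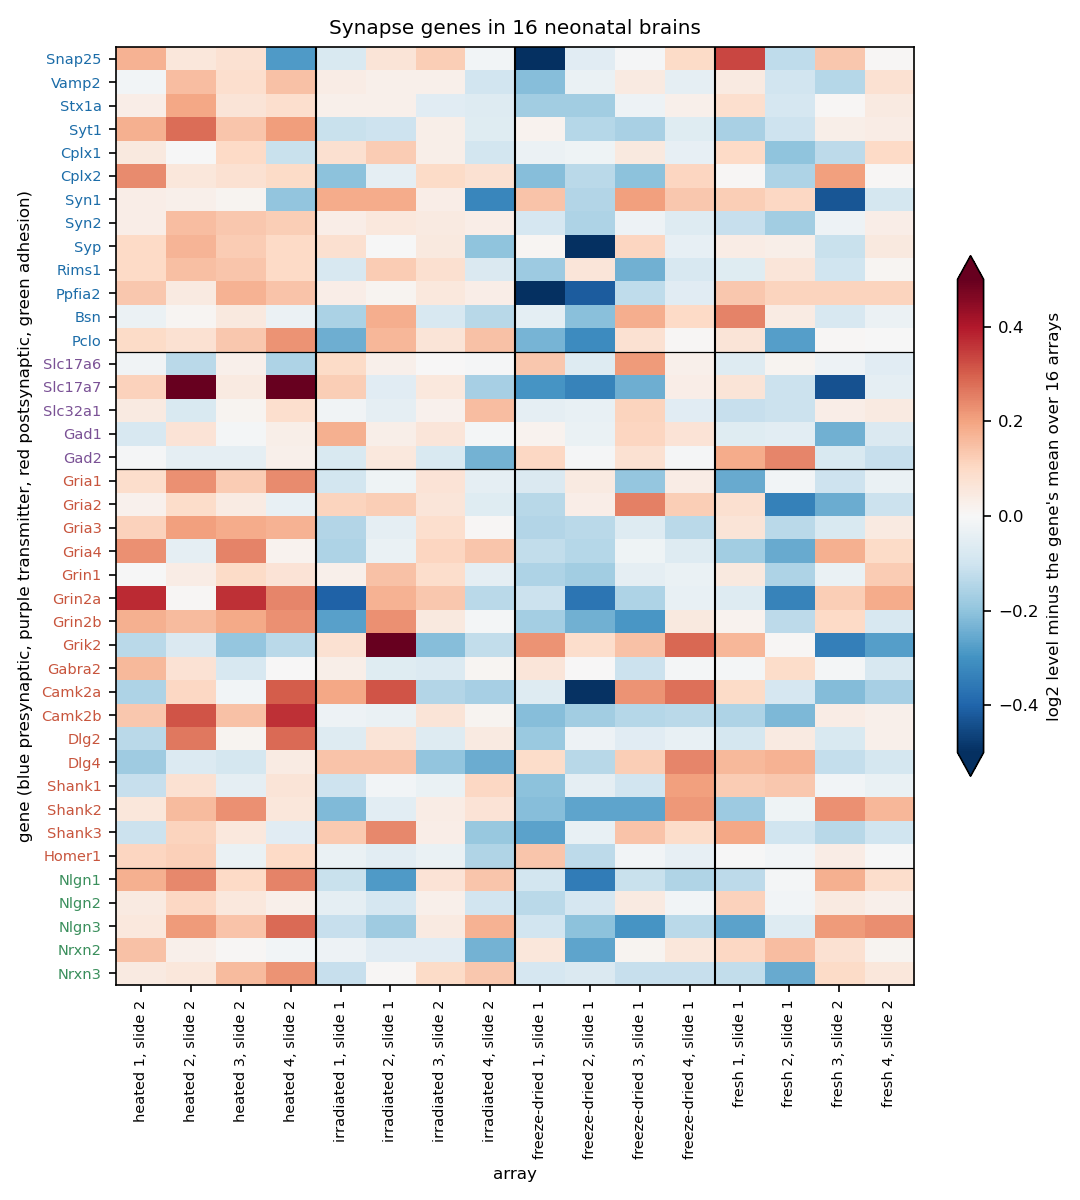
Level of each of the 40 synapse genes (rows, grouped by role) in each of the 16 brains (columns, by group), as the log2 level minus the gene's mean over all arrays, with red above and blue below that mean. The heated columns are mostly red and the freeze-dried columns mostly blue, with Grik2 the other way.

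In brains of heated-sperm offspring 5 synapse genes rose relative to freeze-dried, and 0 fell. They were the calcium sensor of release Syt1, the active-zone scaffold liprin Ppfia2, the AMPA receptor subunit Gria3, the kinase subunit Camk2b and the adhesion protein Nlgn1, by 1.22-fold to 1.33-fold (4 animals per group, adjusted p 0.0111 to 0.0471, limma). Those 5 are 12.5% of the members, and 3.86% of all genes were called in this comparison (2.5% higher and 1.36% lower). Heated and freeze-dried arrays share no slide, and with the slide as a block 0 members and 0 of all genes were called. Sex differed as well, and with Y-linked signal as a covariate 1 member (Camk2b) and 0.536% of all genes were called. Of the 40 members 32 were higher in heated brains, or 80%, against 53.7% of all genes, and the median difference was 0.17 on the log2 scale against 0.018 over all genes. In bulk tissue such a difference cannot be divided between more cells of a type and more RNA per cell.

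The median difference was 0.193 over the presynaptic genes (11 of 13 higher, 2 rose), 0.146 over the postsynaptic genes (14 of 17 higher, 2 rose) and 0.218 over the adhesion genes (5 of 5 higher, 1 rose). Over the 5 transmitter genes it was -0.039, with 2 higher and 0 called. Among these members the median was above 0 in every role but transmitter synthesis and loading. The 6 further transmitter genes measured, described below, went the other way: 6 were higher, with a median of 0.178. Whether the roles differ was not tested. The median of the members' levels, each relative to the gene's own mean, was 0.05, 0.09, 0.08 and 0.09 in heated 1 to 4, against -0.1, -0.14, -0.03 and -0.01 in freeze-dried 1 to 4. It was -0.04 to 0.04 in irradiated and -0.07 to 0.04 in fresh brains, so the heated brains were all above the other 12.

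**Figure D2:**
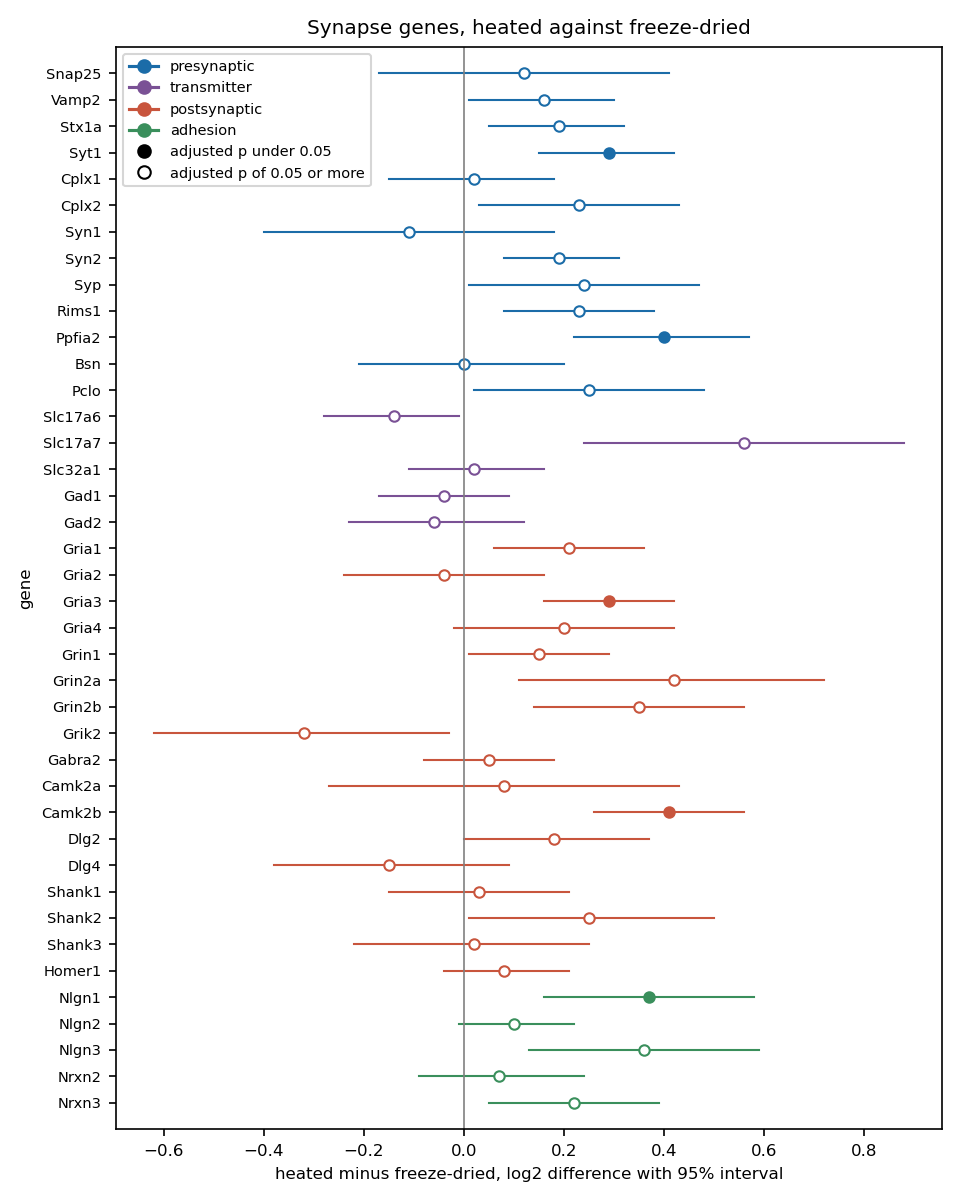
Heated minus freeze-dried log2 difference of each synapse gene with its 95% interval from the limma fit (4 animals per group); filled points are the genes with an adjusted p under 0.05. The 5 filled points, Syt1, Ppfia2, Gria3, Camk2b and Nlgn1, lie between 0.29 and 0.41, and Slc17a7, at 0.56 with a wide interval, is open.

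Camk2b encodes the beta subunit of CaMKII, the calcium-activated kinase abundant in spines. Its level was 5.42, 5.6, 5.43 and 5.65 in heated brains, against 5.07, 5.11, 5.14 and 5.15 in freeze-dried brains. The ranges did not overlap, and the difference was 0.41 with a standard error of 0.07 (1.33-fold, adjusted p = 0.0111), or 0.26 (adjusted p = 0.368) with the slide as a block. The heated brains were also above all irradiated ones (5.25 to 5.35) and all fresh ones (5.06 to 5.32). Heated 2 and heated 4, both low in Hox genes, were the highest. Camk2b was the member that stayed called when each of the 16 arrays was left out in turn. The count of 5 called members became 1 without freeze-dried 2, heated 2 or heated 4 and 3 without freeze-dried 3 or heated 3. The share of all genes called, 3.86% in the main fit, was then 0.857%, 0.684%, 1.08%, 2.07% and 1.85%, in that order.

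Syt1 encodes synaptotagmin 1, which triggers fast release on calcium entry. It measured 4.61, 4.71, 4.57 and 4.64 in heated brains, against 4.45, 4.29, 4.27 and 4.37 in freeze-dried brains, again without overlap. The difference was 0.29 with a standard error of 0.06 (1.22-fold, adjusted p = 0.0261), or 0.16 (adjusted p = 0.615) with the slide as a block. The 4 heated brains were above the irradiated (4.32 to 4.46) and the fresh brains (4.27 to 4.47).

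Ppfia2 encodes liprin-alpha-2, which gathers active-zone proteins at release sites. It measured 1.11, 1.02, 1.15 and 1.12 in heated brains, against 0.48, 0.56, 0.85 and 0.92 in freeze-dried brains, a difference of 0.4 with a standard error of 0.08 (1.32-fold, adjusted p = 0.021), or 0.39 (adjusted p = 0.338) with the slide as a block. The freeze-dried brains stood apart for this gene: the irradiated brains read 0.99 to 1.03 and the fresh brains 1.09 to 1.11, all above every freeze-dried brain. Heated and fresh brains differed by 0 (95% interval -0.17 to 0.18). The standard deviation of Ppfia2 was 0.22 in freeze-dried, 0.05 in heated, 0.02 in irradiated and 0.01 in fresh brains, and the main fit pools the spread over all groups. Fitted on the heated and freeze-dried groups alone, Ppfia2 was not called, while 7 other members and 7.65% of all genes were.

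Gria3, an X-linked AMPA receptor subunit gene, measured 0.45, 0.54, 0.52 and 0.51 in heated brains, against 0.19, 0.2, 0.27 and 0.2 in freeze-dried brains. The difference was 0.29 with a standard error of 0.06 (1.22-fold, adjusted p = 0.0209), without overlap, or 0.21 (adjusted p = 0.471) with the slide as a block. By Y-linked signal 1 of 4 heated and 4 of 4 freeze-dried animals were male. With that signal as a covariate the difference was 0.27 (adjusted p = 0.108), and of the 5 genes Camk2b alone stayed called, at 0.43 (adjusted p = 0.0445). Of all genes 0.536% were called in that fit, against 3.86% in the main fit.

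Nlgn1 encodes neuroligin 1, a postsynaptic partner of neurexins at excitatory synapses. It measured 0.52, 0.58, 0.44 and 0.59 in heated brains, against 0.25, -0.01, 0.23 and 0.19 in freeze-dried brains, a difference of 0.37 with a standard error of 0.1 (1.29-fold, adjusted p = 0.0471), or 0.11 (adjusted p = 0.866) with the slide as a block. The ranges were apart. The Nlgn1 call was lost in 11 of the 16 fits that left out 1 array, where the difference was 0.31 to 0.4, and the calls of Syt1, Ppfia2 and Gria3 were each lost in 4. The irradiated and fresh brains on slide 2 (0.41 and 0.48, and 0.52 and 0.43) overlapped the heated range, while those on slide 1 (0.23 and 0.06, and 0.21 and 0.33) lay below it.

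**Figure D3:**
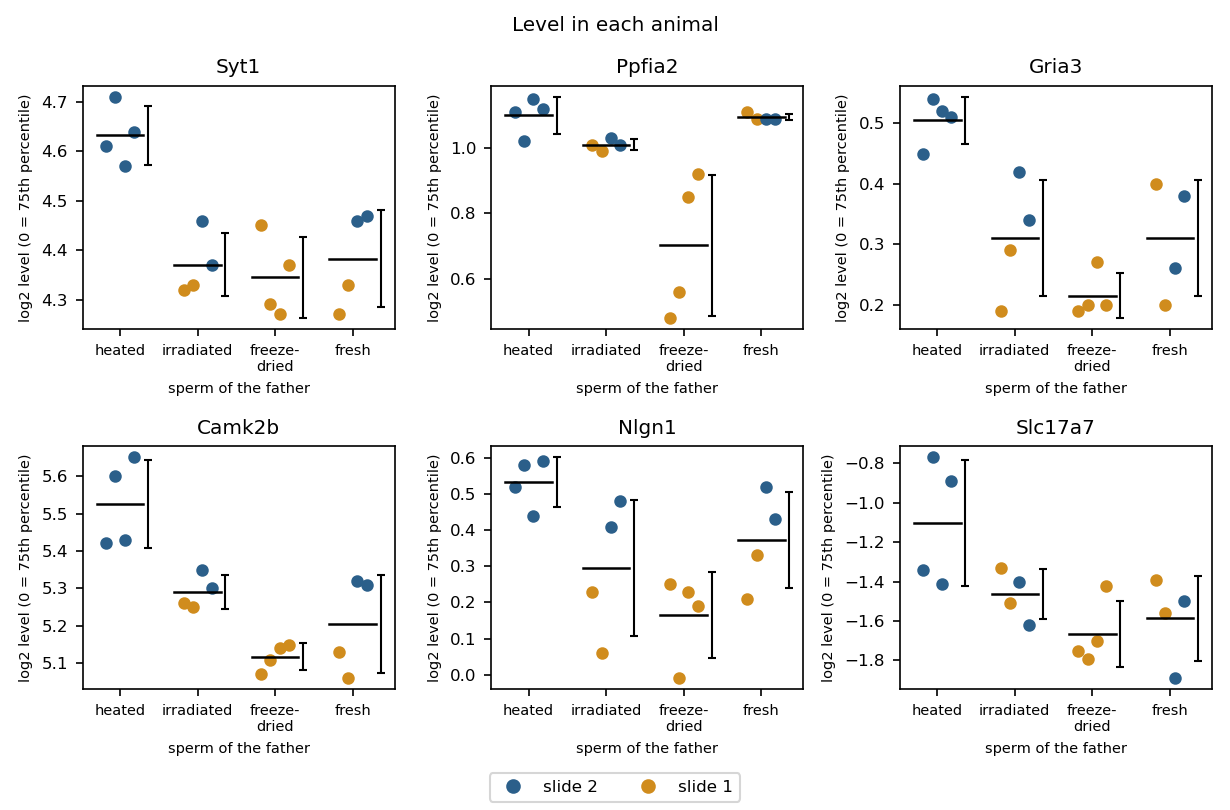
Log2 level of the 5 genes that rose and of Slc17a7 in every brain, by group, with the group mean (line) and standard deviation (bar, n = 4), coloured by slide. Heated points lie above the freeze-dried points in all 6 panels, and in the Nlgn1 panel slide 2 points of fresh and irradiated brains reach the heated range.

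Slc17a7, the vesicular glutamate transporter VGLUT1 of cortical neurons, had the largest difference among the members, 0.56 with a standard error of 0.15 (adjusted p = 0.0503). It read -1.34, -0.77, -1.41 and -0.89 in heated brains, against -1.75, -1.79, -1.7 and -1.42 in freeze-dried brains, and heated 2 and heated 4 were the high ones. Those brains also had the lowest cerebellar marker means, -1.4 and -1.42 against 0.03 to 0.28 in the other 14 arrays, and forebrain marker means of 0.22, which fresh 2 shared. With the 4 Hox-low brains left out, an alternative added with the data known, 0 members were called (12 of all genes, 0.0453%). Camk2b then differed by 0.31 (adjusted p = 0.17), and 29 of 40 members were higher with a median of 0.109.

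The remaining presynaptic genes were mostly higher in heated brains without passing the test. The vesicle proteins synapsin 2 (Syn2, 0.19, adjusted p = 0.0582) and synaptophysin (Syp, 0.24, adjusted p = 0.199), the SNARE Stx1a (0.19, adjusted p = 0.0923) and the scaffold Rims1 (0.23, adjusted p = 0.0756) are examples. Heated and freeze-dried ranges were apart for Syn2, Stx1a and Rims1 but not for Syp. Bsn, another active-zone scaffold, differed by 0 (95% interval -0.21 to 0.2), Cplx1 by 0.02 (-0.15 to 0.18) and Syn1 by -0.11 (-0.4 to 0.18).

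Among postsynaptic genes the NMDA receptor subunits Grin1 (0.15), Grin2a (0.42) and Grin2b (0.35) and the AMPA subunits Gria1 (0.21) and Gria4 (0.2) were higher in heated brains at adjusted p between 0.0584 and 0.243. Gria2, the AMPA subunit that limits calcium entry, differed by -0.04 (95% interval -0.24 to 0.16). The kainate subunit gene Grik2 had the lowest difference, -0.32 (adjusted p = 0.175): it read -2.44, -2.38, -2.5 and -2.44 in heated brains, against -2.08, -2.22, -2.16 and -2.02 in freeze-dried brains. It was the member whose heated range lay below the freeze-dried range. The scaffolds Shank2 (0.25, adjusted p = 0.197) and Dlg2 (0.18, adjusted p = 0.208) were higher in heated brains with an unadjusted p under 0.05. The scaffolds Shank1 (0.03), Shank3 (0.02), Dlg4 (-0.15) and Homer1 (0.08) had intervals that included 0, as did the inhibitory receptor subunit Gabra2 (0.05).

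The adhesion genes Nlgn3 (0.36, adjusted p = 0.0743), Nrxn3 (0.22, adjusted p = 0.119), Nlgn2 (0.1, adjusted p = 0.239) and Nrxn2 (0.07, adjusted p = 0.587) were all higher without passing the test. Of the transmitter genes, the GABA enzymes Gad1 (-0.04) and Gad2 (-0.06) and the vesicular GABA transporter Slc32a1 (0.02) had intervals including 0. Slc17a6, the other vesicular glutamate transporter, differed by -0.14 (adjusted p = 0.188). Over all members, 15 heated ranges lay above the freeze-dried range (11.4% of all genes did) and 1 below it (8.89% of all genes), 40% in all against 20.3% of all genes. At an unadjusted p under 0.05 there were 23 members, or 57.5%, against 23.8% of all genes.

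The slide differed with these groups, since no slide holds both heated and freeze-dried animals. Within the fresh and irradiated groups, which lie on both slides, 0 of 40 members differed between slides at an adjusted p under 0.05 (0.00755% of all genes). That limma fit held 2 animals per group and slide, and the smallest adjusted p among the members was 0.103 (Dlg4). On slide 2, 19 were higher (47.5%, against 54.7% of all genes). The adhesion genes had the highest slide median, 0.22 with 4 of 5 higher, against -0.013 over all members: Nlgn3 differed by 0.32, Nlgn1 by 0.26 and Nrxn3 by 0.22. Camk2b differed by 0.15, Syt1 by 0.13, Gria3 by 0.08 and Ppfia2 by 0. Without adjustment, the limma p for the slide was 0.00565 for Nlgn1, 0.0365 for Camk2b and 0.044 for Syt1. For Gria3 and Ppfia2 that p was 0.301 and 0.935. Lowest were Grik2 (-0.43), Syn1 (-0.35), Dlg4 (-0.31) and Camk2a (-0.3). Across the 40 genes, which are not independent replicates, heated minus freeze-dried and slide 2 minus slide 1 correlated with r = 0.665 and rho = 0.69 (0.406 and 0.51 over all genes), and 27 of 40 members had the same sign in both (67.5%, against 71.2% of all genes).

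With the slide as a block 36 of 40 members were higher in heated than in freeze-dried brains, with none called. The median was 0.137 over the members and -0.007 over all genes. In that fit the slide term is set by the fresh and irradiated animals alone, as only those groups lie on both slides. On slide 2 itself the 4 heated brains were above all 4 fresh and irradiated brains for 8 members (Syt1, Syp, Rims1, Gad2, Gria1, Gria3, Grin2b and Camk2b), or 20%, against 5.48% of all genes, and below them for 0 members.

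**Figure D4:**
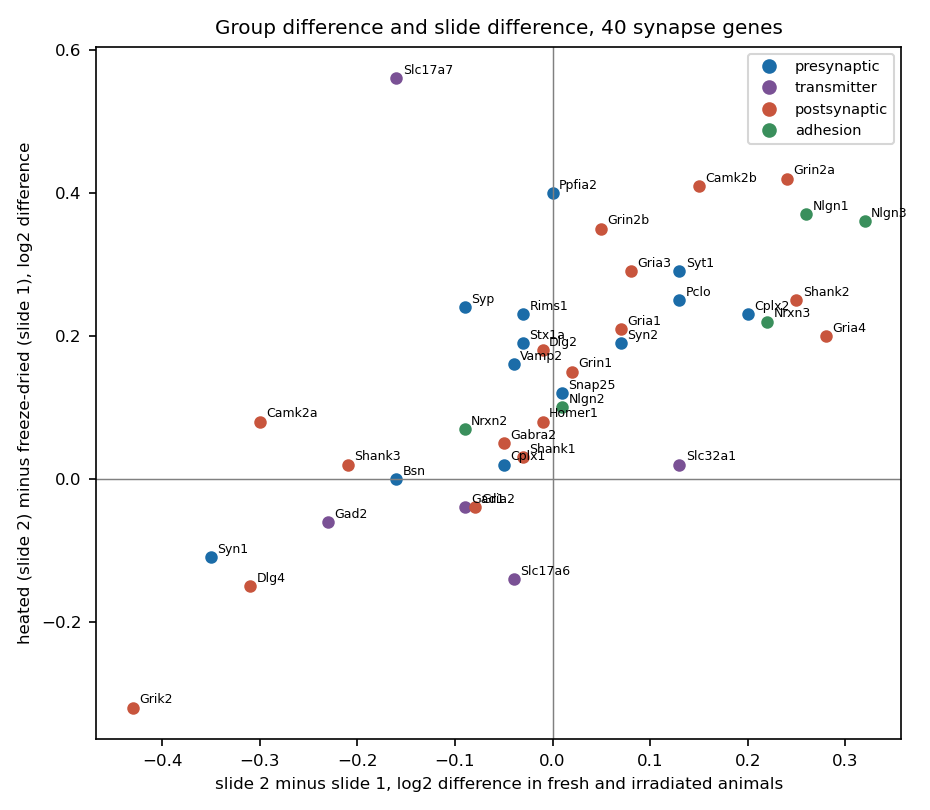
Each point is a synapse gene, with its slide 2 minus slide 1 log2 difference in fresh and irradiated brains across and its heated minus freeze-dried log2 difference upward, coloured by role. Nlgn1, Nlgn3 and Nrxn3 lie far to the right, Grik2 at the lower left, and Slc17a7 and Ppfia2 high without a positive slide difference.

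Against fresh, heated-sperm offspring had 2 synapse genes that rose and 0 that fell, 5% of the members against 2.93% of all genes (2.39% higher). Camk2b differed by 0.32 (standard error 0.07, 1.25-fold, adjusted p = 0.0259) and Syt1 by 0.25 (standard error 0.06, 1.19-fold, adjusted p = 0.0459), and neither range overlapped with fresh. Gria1 was next: it read 3.39, 3.53, 3.43 and 3.54 in heated brains, against 3.05, 3.29, 3.2 and 3.27 in fresh brains, a difference of 0.27 (standard error 0.07, adjusted p = 0.0563). Syn2 followed with 4.26, 4.38, 4.36 and 4.35 in heated brains, against 4.11, 4.05, 4.2 and 4.26 in fresh brains (0.18, standard error 0.05, adjusted p = 0.0892). Of all members 32 were higher and the median difference was 0.102 against 0.032 over all genes. The heated range lay above the fresh range for 8 members, or 20%, against 7.52% of all genes. Within slide 2 Camk2b differed by 0.21 (adjusted p = 0.265) and Syt1 by 0.17 (adjusted p = 0.355), with 0 members and 18 of all genes called. The 2 calls against fresh became 0 without heated 2, heated 4, fresh 1 or fresh 2 (0.959%, 1.33%, 1.53% and 1.1% of all genes called). The Syt1 call was lost in 13 of the 16 fits that left out 1 array.

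Against irradiated, heated brains had 0 synapse genes called, with 1.01% of all genes called and 8 members at an unadjusted p under 0.05. Syt1 (0.26, adjusted p = 0.0632), Camk2b (0.24, adjusted p = 0.135), Gria3 (0.19, adjusted p = 0.146) and Gria1 (0.19, adjusted p = 0.224) had the smallest p, each with all heated brains above all irradiated ones. Gria3 read 0.45 to 0.54 in heated brains, against 0.19, 0.29, 0.42 and 0.34 in irradiated brains, and Gria1 read 3.39 to 3.54 in heated brains, against 3.21, 3.28, 3.37 and 3.26 in irradiated brains. The heated range lay above the irradiated range for 8 members, or 20%, against 6.86% of all genes, and 13.8% of all genes had an unadjusted p under 0.05. The members' median difference was 0.098, against 0.004 over all genes. Syt1, Gria1, Gria3 and Camk2b are the 4 members (10%, against 1.95% of all genes) whose heated range lay above the other 12 arrays.

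Between irradiated and freeze-dried brains 0 of the 40 genes were called by limma, as were 0% of all genes, and 4 members had an unadjusted p under 0.05 (7.22% of all genes did). The median difference was 0.07 with 29 of 40 higher, against 0.015 over all genes. Ppfia2 measured 1.01, 0.99, 1.03 and 1.01 in irradiated brains, against 0.48, 0.56, 0.85 and 0.92 in freeze-dried brains (0.31, standard error 0.08, adjusted p = 0.597). Camk2b measured 5.26, 5.25, 5.35 and 5.3 in irradiated brains, against 5.07, 5.11, 5.14 and 5.15 in freeze-dried brains (0.17, standard error 0.07, adjusted p = 0.685). Both pairs of ranges were apart, as were those of Syn2, with 4.26, 4.28, 4.27 and 4.26 in irradiated brains against 4.14, 4.07, 4.2 and 4.16 in freeze-dried brains (0.13, standard error 0.05, adjusted p = 0.685). Those 3 are the members whose irradiated range lay above the freeze-dried range (2.78% of all genes). Grin1 overlapped, with 0.49, 0.61, 0.55 and 0.42 in irradiated brains against 0.31, 0.29, 0.42 and 0.43 in freeze-dried brains (0.15, standard error 0.07, adjusted p = 0.685). Scaled by the median of each array in place of the 75th percentile, the members' median difference was -0.006 and that of all genes -0.061. The members' median lay 0.055 above that of all genes under both scalings. Each scaling subtracts a single number per array from every gene, so that distance cannot change between them.

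Against fresh, irradiated brains also had 0 members called (1.37% of all genes; 3 members at an unadjusted p under 0.05, against 16.9% of all genes), with a median of 0.02 against 0.032 over all genes and 21 of 40 higher. Scaled by each array's median these were -0.043 and -0.031. The members' median lay below that of all genes by the same amount (-0.012) under both scalings, which cannot differ in this. The smallest p belonged to the GABA enzyme Gad1, which read 3.56, 3.41, 3.44 and 3.37 in irradiated brains, against 3.32, 3.33, 3.14 and 3.31 in fresh brains (0.17, standard error 0.06, adjusted p = 0.179). Nrxn2, a presynaptic neurexin, read 4.89, 4.86, 4.86 and 4.68 in irradiated brains, against 5.02, 5.07, 4.99 and 4.93 in fresh brains (-0.18, standard error 0.08, adjusted p = 0.251). Gad1 was the member with an irradiated range above fresh (5.54% of all genes), and Nrxn2, Ppfia2 and Homer1 were those with a range below it (3.55% of all genes). Gria2 read 4.55, 4.56, 4.5 and 4.38 in irradiated brains, against 4.52, 4.1, 4.19 and 4.33 in fresh brains (0.21, standard error 0.09, adjusted p = 0.269), and Syn2 differed by 0.11 (standard error 0.05, adjusted p = 0.296). In the test of whether irradiated minus fresh differed between slides, 0 members were called and 0 had an unadjusted p under 0.05, against 4.81% of all genes.

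Freeze-dried-sperm offspring had 0 synapse genes called against fresh by limma, as had all genes (0%), and 5 members had an unadjusted p under 0.05 (9.93% of all genes). Of the 40 members 29 were lower in freeze-dried brains, with a median of -0.052 against 0.018 over all genes, and the adhesion genes were lower in 5 of 5 (median -0.123). All freeze-dried arrays lie on slide 1, and against the 2 fresh brains there 4 of those 5 were lower: Nrxn3 averaged 3.37 in freeze-dried and 3.27 in fresh brains, and Nlgn3 0.33 in freeze-dried and 0.35 in fresh brains. Ppfia2 had the smallest p, with 0.48, 0.56, 0.85 and 0.92 in freeze-dried brains against 1.11, 1.09, 1.09 and 1.09 in fresh brains (-0.39, standard error 0.08, adjusted p = 0.333). It was the member with a freeze-dried range below fresh (1.56% of all genes). Gad1 read 3.4, 3.35, 3.49 and 3.45 in freeze-dried brains, against 3.32, 3.33, 3.14 and 3.31 in fresh brains (0.15, standard error 0.06, adjusted p = 0.468), and was the member with a range above it (2.6% of all genes). Gria2 (0.22, standard error 0.09, adjusted p = 0.473) and Nlgn1 (-0.21, standard error 0.1, adjusted p = 0.5) followed and overlapped. On slide 1 alone, where all freeze-dried and 2 fresh brains lie, the members' median was -0.039.

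The members are read by 78 probes, of which 71 passed the filter, and single probes of a gene differed. Of 21 members with over 1 such probe, 14 had all probes on the same side of 0 between heated and freeze-dried brains. Tested one by one, 9 of the 71 probes, in 9 members, rose and 0 fell, against 3.83% of all 34261 probes called (2.33% higher). The single probe of Slc17a7 was among the 9, at a limma adjusted p of 0.0499 over all probes, against 0.0503 over all genes. The brighter Camk2b probe was called (0.41) and the dimmer was not (0.23, adjusted p = 0.134), likewise for Gria3 (0.29, and 0.14 with adjusted p = 0.321). Pclo, an active-zone scaffold, Dlg2, a postsynaptic scaffold, and Nrxn3 each had a dimmer probe that rose (0.61, 0.67 and 0.53) while the brightest did not (0.25, 0.18 and 0.22). Cplx2, a complexin that clamps fusion, had a dimmer probe at 0.74 and a brightest one at 0.23, neither called. The probes of Grik2, whose brightest probe gave the low value above, disagreed in sign, at -0.32, 0.22 and 0.33, as did those of Gria4, at 0.2, -0.12 and -0.17.

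**Figure D5:**
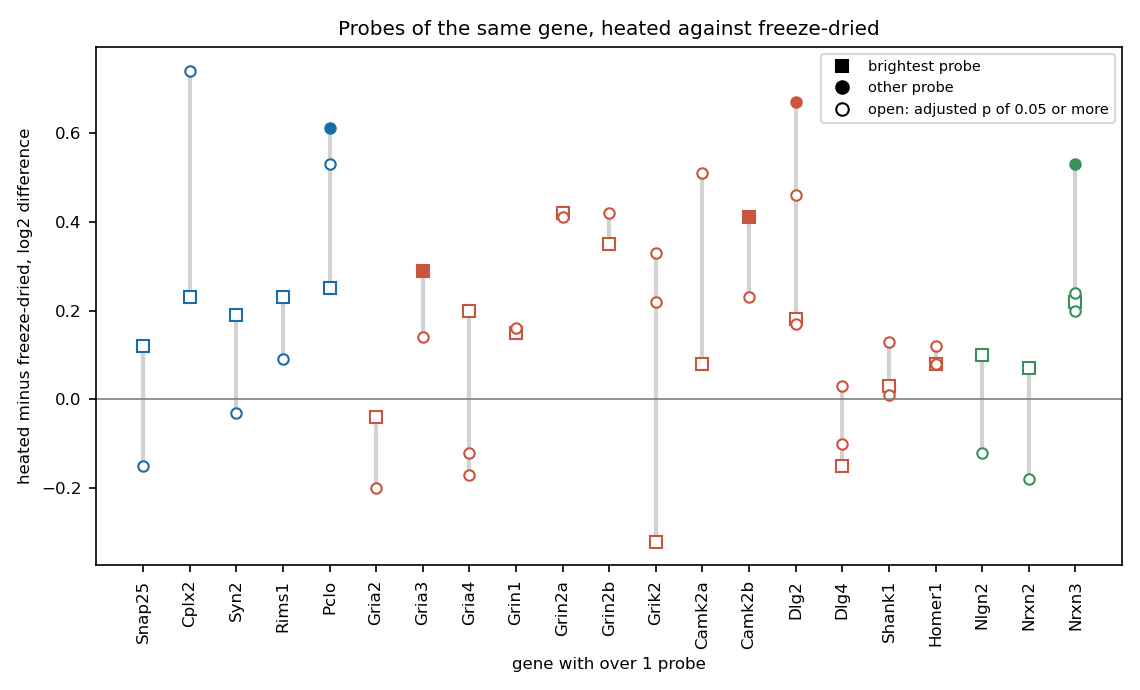
Heated minus freeze-dried log2 difference of every probe of the 21 members with over 1 probe that passed the filter; squares are the brightest probe, circles the others, and filled symbols have an adjusted p under 0.05 over all probes. The filled circles of Pclo, Dlg2 and Nrxn3 lie above their own open squares, and the Grik2 and Gria4 probes lie on both sides of 0.

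A further 152 synapse genes, listed by role and excluding the members, gave 147 with a measurement. Between heated and freeze-dried brains 17 of them rose and 0 fell, 11.6% against 3.86% of all genes, with a median difference of 0.106 and 76.2% higher. Of the 17, 11 were listed as postsynaptic (of 57), 2 as presynaptic (of 40), 3 as adhesion genes (of 44) and 1 as a transmitter gene (of 6). These roles are those of the list, and they do not settle on which side of the synapse a receptor such as Grm7 or Grm3 acts. The 4 with the smallest p among those listed as postsynaptic were the glutamate receptor Grm7 (0.58, adjusted p = 0.00795), the glycine receptor subunit Glrb (0.44, adjusted p = 0.011), the NMDA subunit Grin3a (0.46, adjusted p = 0.0198) and the scaffold Baiap2 (0.3, adjusted p = 0.0238). Grm7 averaged 2.14 ± 0.1 in heated and 1.56 ± 0.04 in freeze-dried brains (SD, n = 4 each), and Glrb averaged 3.31 ± 0.02 in heated and 2.86 ± 0.05 in freeze-dried brains. The calcium sensor Doc2b (0.35, adjusted p = 0.0143) and the vesicle protein Syngr3 (0.24, adjusted p = 0.0398) were the presynaptic ones, and Adgrl3 (0.44, adjusted p = 0.0111), a latrophilin, Cadm2 (0.36, adjusted p = 0.0197) and Mdga2 (0.28, adjusted p = 0.0266) the adhesion ones. Slc1a2, the glial glutamate transporter, rose by 0.43 (adjusted p = 0.036). By role the median difference was 0.08 over the presynaptic, 0.178 over the transmitter, 0.137 over the postsynaptic and 0.099 over the adhesion genes of this list.

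Against fresh, 15 of these other synapse genes rose in heated brains and 0 fell (10.2%, against 2.93% of all genes). The glutamate receptor gene Grm3, also listed as postsynaptic, rose in irradiated brains against fresh (0.29, adjusted p = 0.0432). It was the 1 gene of 147 called there (0.68%, against 1.37% of all genes). By limma 0 of the 147 were called between irradiated and freeze-dried, freeze-dried and fresh, or heated and irradiated brains (0%, 0% and 1.01% of all genes). At an unadjusted p under 0.05 there were 12 (8.16%, against 7.22% of all genes), 16 (10.9%, against 9.93%) and 27 (18.4%, against 13.8%), in that order. Markers of other cells also moved with heated brains, where 2.5% of all genes rose and 1.36% fell against freeze-dried. Of 7 ependyma markers 5 rose and 0 fell (median 0.58), with list means of 0.31 to 0.58 in heated, against -0.35 to -0.02 in freeze-dried brains. Of 14 markers of progenitors and dividing cells 4 fell and 0 rose (median -0.28), with list means of -0.25 to -0.13 in heated, against 0.01 to 0.22 in freeze-dried brains. Of 12 neuron markers 0 were called (median -0.01). The astrocyte and oligodendrocyte lineage lists had medians of 0.18 and 0.16, each with 1 of 8 risen, close to the 0.17 of the synapse members. Microglia had a median of 0.08 with 0 called, and endothelium -0.01 with 1 of 6 risen. Of 7 cerebellar markers 2 fell (median -0.57), and of the choroid plexus and meninges lists 1 of 7 each (medians 0 and -0.12). The part of these cell types in the synapse gene differences was not tested.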

How the data were processed

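Total RNA from 16 neonatal brains was hybridized to one-colour arrays. The deposited scanner files hold fluorescence intensity per spot. Scans were read in version 11.0.1.1 of Feature Extraction, as the submitters' processing notes say, and signals were background-subtracted and spatially detrended within each array per the file headers; their percentiles differ between arrays. A value table on the log2 scale was also deposited; how the authors made it is not given in the sources used here, and it served as an alternative only.

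Outlier values (50, none in a member) were left out, and spots of a probe averaged (56605 probes from 62976 spots, 3671 of them controls). log2 processed signal minus each array's log2 75th percentile was fitted in R 4.3.3 with limma 3.58.1 (files read through the data.table package, version 1.17.8): 16 arrays, 4 group means, 12 residual degrees of freedom, two-sided moderated tests. Probes had to exceed background clearly in every animal of 1 or more groups, which 34261 did; a gene was represented by its brightest such probe. Benjamini-Hochberg adjustment ran over all 26477 genes and features (15993 with a symbol), called at an adjusted p under 0.05. The number of arrays limits the precision. The fit was tested on simulated data.

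Members and lists were chosen with earlier results of these data known. Per-array values are given for called members and, where fewer than 4 were called, for the 4 with the smallest p; other synapse genes are named from the 4 smallest p per role in the heated, irradiated and freeze-dried main comparisons. Slc17a7 and Grik2 are also given by array as the extremes, chosen after their values were seen. Slides were read from the file headers. Alternatives were quantile and median scaling, normexp (offset 50) on the median spot and background signals, since the files hold no mean signal, other filters and probe rules, slide, replicate number and Y-linked signal as terms, the deposited table, fits of 2 groups and leaving out each array. Figures were drawn with matplotlib 3.10.9.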

Additional observations from a re-analysis of the deposited data

Results flagged for a closer look

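Within each group of 4 brains, a brain was marked for a member when its gap to the next value as a share of the group's range exceeded Dixon's 95% critical value. Of 160 gene and group combinations 11 were marked, and chance marks about 1 in 20. Irradiated 4 was low for 3 members: Vamp2 at 4.23 (next 4.35), Homer1 at 0.95 (next 1.05) and Nrxn2 at 4.68 (next 4.86). Freeze-dried 3 was high for Cplx1 at 3.71 (next 3.64) and Slc32a1 at 5.73 (next 5.58), freeze-dried 4 was high for Shank2 at -1.38 (next -1.81), and freeze-dried 2 was low for Nrxn2 at 4.65 (next 4.93). Fresh 3 was low for Syp at 3.86 (next 4) and Gad1 at 3.14 (next 3.31), and fresh 1 was high for Shank3 at 2.3 (next 2.01). Heated 4 was low for Syn1 at 4.08 (next 4.29). None of the 5 genes that rose against freeze-dried is in this list.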

How the results depend on the processing

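Percentages in brackets here are the shares of all genes called in the same fit. Between heated and freeze-dried brains (3.86% in the main fit) the 5 called members became 0 with median scaling (0.442%), with the slide as a block (0%), with the deposited table (0%) and with the 4 Hox-low brains left out (0.0453%). They became 1 with Y-linked signal as a covariate (0.536%) and 3 with no filter on dim probes (1.34%). The genes changed where the count rose. With normexp 6 were called (4.81%), without Syt1 and with Syn2 and Slc17a7 added. With 2 groups fitted 7 were called (7.65%), without Ppfia2 and with Grin2b, Nlgn3 and the lower Grik2 added. The count of called members ranged from 1 to 8 when each array was left out in turn. It was 1 (Camk2b) without freeze-dried 2 (0.857%), heated 2 (0.684%) or heated 4 (1.08%). It was 3 without freeze-dried 3 (2.07%) or heated 3 (1.85%), and 8 without fresh 1 (5.87%). Between heated and fresh brains (2.93% in the main fit) the 2 became 0 with median scaling (0.317%), no filter (0.585%), the slide as a block (1.53%) and within slide 2 (0.068%). They also became 0 with the deposited table (1.29%), with 2 groups fitted (0.159%) and without the Hox-low arrays (0%). The count was 1 with the mean of a gene's probes (2.59%), and ranged from 0 to 2 with an array left out. It stayed 2 but lost Syt1 with normexp (Syn2 and Camk2b, 1.97%) and with Y-linked signal as a covariate (Gria1 and Camk2b, 2.76%). Between heated and irradiated brains (1.01% in the main fit) the count was 1 with quantile scaling (1.15%) and 0 to 1 with an array left out. Over those left-out arrays the members' median difference was 0.141 to 0.195 for heated against freeze-dried, 0.085 to 0.118 for heated against fresh, 0.073 to 0.109 for heated against irradiated, 0.04 to 0.103 for irradiated against freeze-dried, -0.004 to 0.037 for irradiated against fresh and -0.069 to -0.036 for freeze-dried against fresh. With median scaling it was 0.102 (heated against freeze-dried), 0.046 (heated against fresh), -0.006 (irradiated against freeze-dried) and -0.043 (irradiated against fresh). The medians of all genes were then -0.051, -0.024, -0.061 and -0.031. Relative to all genes the members stood at 0.152, 0.07, 0.055 and -0.012 under both scalings. That distance is fixed, because each scaling subtracts a single number per array from every gene. The members' median difference was 0.076 and 0.059 for the first pair of comparisons with the deposited table. It was 0.109 and 0.063 without the Hox-low arrays, which leave fewer samples. The cause was not tested. No called member changed sign in any of these. With a replicate block 5 members were called between heated and freeze-dried brains (the same 5) and 2 between heated and fresh (Gria1 and Camk2b). Deviations of same-numbered arrays of different groups had a median r of 0.028, against -0.019 for other pairs. The same-numbered r was over 0.1 in 10 of 24 pairs and ran from -0.387 to 0.383. Whether a number stands for animals that share a litter cannot be told from these values. All members were well above background on all arrays. Whether dim signal affects any of their differences was not tested.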
